A study of Mus musculus with 4 samples.

Results

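The genes that make, break down and read out cyclic AMP were followed in mouse medulloblastoma cells given an inhibitor of Smoothened. They were chosen by symbol among the protein-coding genes of the deposited table: numbered adenylyl cyclases (Adcy), lettered cyclic nucleotide phosphodiesterases (Pde), the catalytic and regulatory subunits of protein kinase A (PKA), and A-kinase anchoring proteins with an Akap symbol. The pattern found 56 genes among 55573, namely 10 cyclases, 24 phosphodiesterases, 6 PKA subunits and 16 anchors. RNA was sequenced from SmoWT cells, a culture of the Sonic Hedgehog subtype of medulloblastoma grown as neurospheres. All cells came from spontaneous tumours of C57BL/6 mice with the genotype Ptch1+/-, Trp53-/-, so treated and control cells alike carry the lesions in Ptch1, which encodes the inhibitory Hedgehog receptor, and in Trp53. The DMSO group (n = 2) received solvent, and the GDC0449 group (n = 2) received 0.1 µM GDC0449 (vismodegib, a Smoothened antagonist), both for 24 h. The labels do not say whether replicates were separate cultures; if they were not, the p-values reflect technical spread alone.

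Adenylyl cyclases make cAMP from ATP, phosphodiesterases hydrolyse cAMP or cGMP, and cAMP frees the catalytic subunits of PKA from their regulatory subunits. Anchoring proteins bind the regulatory subunits and hold PKA near its substrates, often together with cyclases and phosphodiesterases. In Hedgehog signalling PKA restrains the pathway: it phosphorylates the Gli transcription factors, which favours their processing to repressors and keeps full-length Gli from becoming active. In cerebellar granule neuron progenitors, the lineage that this tumour resembles, receptors that raise cAMP oppose the mitogenic effect of Sonic Hedgehog.

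The libraries held 16329721 to 20790030 reads in genes. Gli1, the target gene that reports pathway activity, was at 281 and 263 CPM (reads scaled to library size) in DMSO and at 38.8 and 32.7 CPM in GDC0449, a log2 fold change of -2.93 ± 0.07 (SE, edgeR adjusted p = 2.58e-34). Of the granule progenitor markers Atoh1, Barhl1, Zic1, Zic2, Pax6 and Gli1, all but Barhl1 had enough reads to be tested, and Barhl1 was at 0.248 to 0.508 CPM. Their summed level was 1062 to 1083 CPM in DMSO and 974 to 1050 CPM in GDC0449 with Gli1, and 799 to 802 CPM and 935 to 1017 CPM without it. Atoh1 was called higher and Gli1 lower. Markers of postmitotic granule neurons summed to 731 to 784 CPM in DMSO and 1415 to 1507 CPM in GDC0449, and 4 of 5 tested were called higher, with Gabra6 at 0 reads. Astrocyte markers summed to 199.5 to 216 CPM in DMSO and 301 to 308 CPM in GDC0449, with 2 of 6 tested called higher and with Aqp4 and Aldh1l1 at 0 reads. Oligodendrocyte lineage markers summed to 69.3 to 70.2 CPM in DMSO and 84.0 to 85.7 CPM in GDC0449. Purkinje neuron markers summed to 69.1 to 69.8 and 85.7 to 85.9 CPM, and 0 tested genes of these 2 lists were called. Microglial markers were scarce and lower, at 1.68 to 2.79 CPM in DMSO and 1.14 to 1.18 CPM in GDC0449. The part of these marker shifts in the values below was not tested. In bulk RNA, a change in the share of a cell type and a change in RNA per cell cannot be told apart.

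A gene was called when its adjusted p was below 0.05 and its fold change over 1.5. Of the 56 genes 40 had enough reads to be tested, and 16 had not. Called higher in GDC0449 were 6 of the 40 (15.0%), against a background of 8.62% of all 15472 genes tested. Called lower was 1 of the 40 (2.50%), against 3.8%. Both shares rest on few genes, and no test of the list against other genes was made. The 6 that rose were the phosphodiesterase genes Pde1c, Pde4a and Pde9a, the cyclase gene Adcy5, and the anchor genes Akap5 and Akap6, and the gene that fell was Akap3. By adjusted p alone, 12 of the 40 were higher and 3 lower, where the background was 18% in each direction and 35.9% in both together. CPM ranges of the groups were apart for 31 of the 40, against 65.8% of all genes tested. The median log2 fold change was 0.13 over the 40 and 0.01 over all genes tested.

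**Figure D1:**
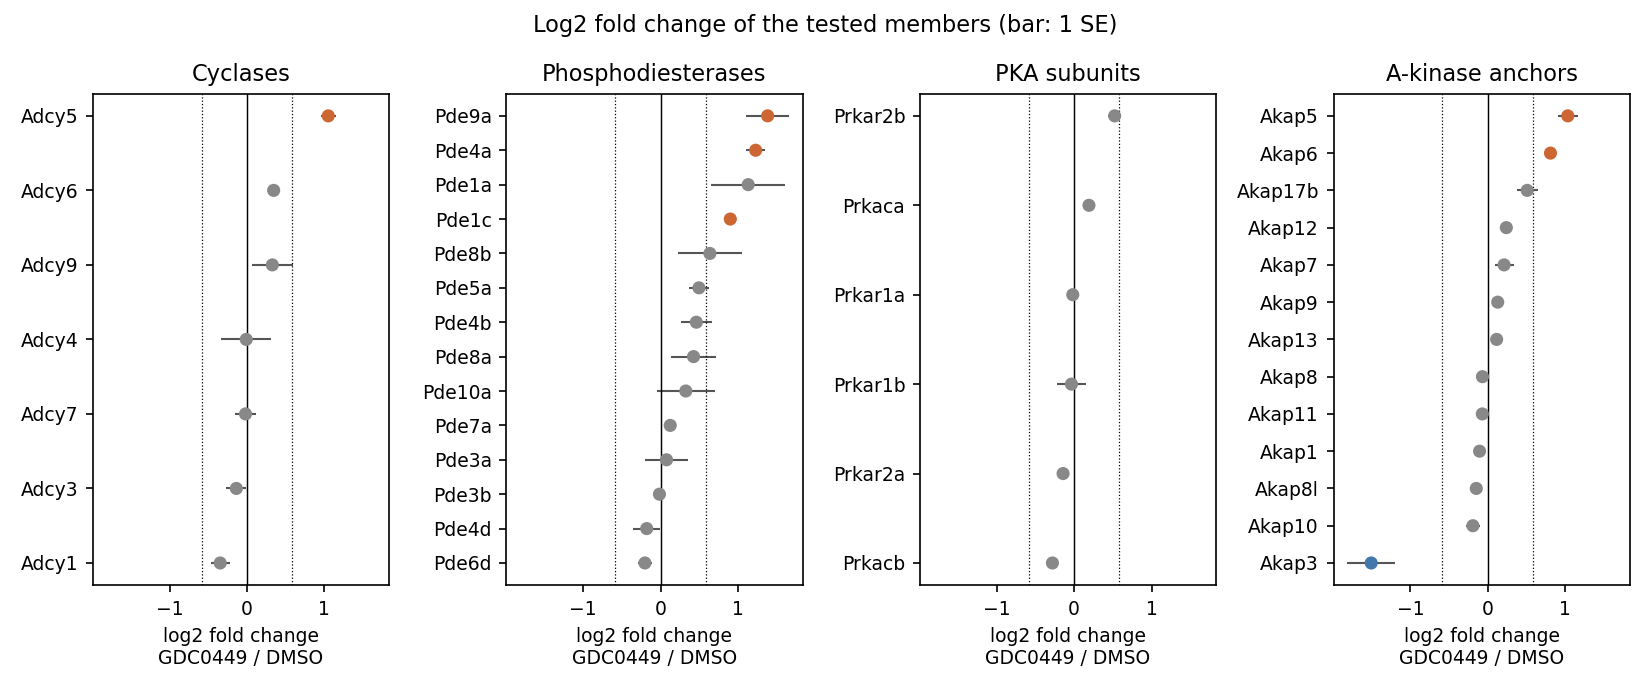
Log2 fold change of GDC0449 over DMSO on the x axis for each of the 40 tested genes, by family; bars are 1 SE, dotted lines mark 1.5-fold, and colour marks genes called higher (orange) or lower (blue). The 6 genes called higher lie between 0.81 and 1.38, Akap3 lies at -1.51, and no PKA subunit lies past the dotted lines.

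Among the cyclases, 1 of 7 tested rose and 0 fell, against 8.62% and 3.8% of all genes tested. Adcy5, a cyclase inhibited by calcium and by Gi proteins that is best known from the striatum, stood at 16.5 and 16.3 CPM in DMSO and at 34.3 and 33.6 CPM in GDC0449. The groups were far apart, and each GDC0449 library held about double the level of either control. Its log2 fold change was 1.05 ± 0.10 (SE, edgeR adjusted p = 1.81e-12), a 2.07-fold rise. The gene (ENSMUSG00000022840) spans chromosome 16, 35154877 to 35305738, in mm10. It remained called in each fit without 1 library and on the FPKM scale.

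Adcy6, the closest relative of Adcy5 and likewise inhibited by calcium, was the cyclase of highest level per length. FPKM, the level scaled to gene length and depth that the authors deposited, put it at 11.05 and 8.75 in DMSO and at 11.8 and 10.7 in GDC0449, which overlap. In CPM it was at 56.6 and 50.1 against 69.4 and 66.3, with no overlap, and its log2 fold change of 0.34 ± 0.08 passed the adjusted p (0.000321) but not the fold threshold. Adcy6 made up 62.5% ± 2.53 of the summed cyclase FPKM in DMSO and 61.6% ± 0.347 in GDC0449 (SD, n = 2). The share of Adcy5 was 9.77% ± 0.903 in DMSO and 17.6% ± 1.32 in GDC0449. The higher share of Adcy5 thus stood beside an unchanged order, with Adcy6 above Adcy5 in every library.

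The calcium-stimulated cyclases that were tested, Adcy1 and Adcy3, were not called. Adcy1, a calmodulin-activated neuronal cyclase, was at 17.2 and 16.2 CPM in DMSO and at 11.8 and 14.5 CPM in GDC0449, a log2 fold change of -0.35 ± 0.12 that passed the adjusted p (0.0210) but not the fold threshold. Adcy3, the cyclase typical of neuronal primary cilia, was at 12.7 and 12.3 against 12.1 and 10.6 CPM (log2 fold change -0.14 ± 0.13, adjusted p = 0.44). On FPKM its groups overlapped, with 2.11 and 2.33 against 2.60 and 1.84. Adcy3 shares 22.1% of its exonic bases with Cenpo on the opposite strand, and no strand setting of the counting is given in the sources used here, so its count is uncertain.

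None of the remaining cyclases passed. Adcy7, which Gβγ subunits stimulate, was at 12.4 and 10.2 CPM against 10.8 and 11.6 CPM, which overlap, with log2 fold change -0.02 ± 0.13. Its FPKM of 1.11 in DMSO replicate 1 stood far above 0.241, 0.241 and 0.261 in the other libraries. Adcy4 and Adcy9 stayed below 3 CPM in every library, with log2 fold changes of -0.01 ± 0.33 and 0.33 ± 0.27. Adcy10, the soluble bicarbonate-activated cyclase, had 5 and 4 reads in DMSO and 10 and 10 in GDC0449 and was not tested. Adcy2 and Adcy8 each had 1 read in GDC0449 replicate 2 and 0 in the other libraries, where a count of 0 allows up to 0.142 to 0.186 CPM (3 reads per library, counting error only).

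Among the phosphodiesterases, 3 of 14 tested rose and 0 fell, against 8.62% and 3.8% of all genes tested. Pde1c, which encodes a calcium and calmodulin-activated enzyme that hydrolyses cAMP and cGMP, was the phosphodiesterase of highest mean FPKM. It stood at 286 and 296 CPM in DMSO and at 539 and 546 CPM in GDC0449, so replicates lay close together and the groups far apart. The log2 fold change was 0.90 ± 0.06 (SE, edgeR adjusted p = 7.90e-18), a 1.87-fold rise of a gene at chromosome 6, 56069804 to 56569103 (ENSMUSG00000004347). On the FPKM scale the order was the same but the replicates spread more, with 10.99 and 15.3 in DMSO and 39.3 and 24.3 in GDC0449.

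Pde1c took a larger share of the family in treated cells. It made up 18.7% and 24.5% of summed phosphodiesterase FPKM in DMSO and 43.1% and 29.7% in GDC0449. From counts per exonic length (RPKM), the shares were 25.8% and 26.5% against 39.3% and 38.1%. The groups did not overlap on either scale, and the shares were not tested. The other PDE1 genes were scarce. Pde1a was at 0.508 and 0.310 CPM against 0.900 and 0.947 CPM and missed the threshold (log2 fold change 1.13 ± 0.48, adjusted p = 0.0578), and Pde1b had between 2 and 9 reads per library.

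Pde4a, a cAMP-specific phosphodiesterase, was lower in level and changed by a larger factor. It was at 12.9 and 9.18 CPM in DMSO and at 27.4 and 24.9 CPM in GDC0449. The DMSO replicates differed from each other more than those of Pde1c, but both lay far below the treated pair. The log2 fold change of Pde4a was 1.23 ± 0.12 (SE, edgeR adjusted p = 5.83e-12), a 2.34-fold rise, at chromosome 9, 21165714 to 21213248 (ENSMUSG00000032177).

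The other PDE4 genes did not pass. Pde4b was at 4.17 and 3.41 CPM in DMSO and 4.596 and 5.92 CPM in GDC0449 (log2 fold change 0.46 ± 0.20, adjusted p = 0.0722). Pde4d was at 8.54 and 5.89 against 6.87 and 6.01 CPM, with overlapping groups (log2 fold change -0.18 ± 0.17, adjusted p = 0.449). Pde4c had at most 3 reads in a library. Pde4a made up 45.8% and 49.8% of the FPKM summed over the PDE4 genes in DMSO and 66.3% and 63.5% in GDC0449. Without GDC0449 replicate 1, Pde4b passed at 0.63 (adjusted p = 0.0414).

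Pde9a, a cGMP-specific phosphodiesterase of high affinity, rose from a low level. It had 30 and 20 reads in DMSO and 89 and 65 in GDC0449, or 1.53 and 1.24 against 4.22 and 3.08 CPM. The groups did not overlap, and the log2 fold change was 1.38 ± 0.28 (SE, edgeR adjusted p = 7.28e-05), at chromosome 17, 31386210 to 31476310 (ENSMUSG00000041119). Without DMSO replicate 1 or 2 the change stayed at 1.55 and 1.25 but missed the adjusted p (0.0856 and 0.100). It was also missed on log2(FPKM + 1), at 0.79 (adjusted p = 0.0582), and on log2(FPKM + 0.1), at 1.82 (adjusted p = 0.0587). Pde5a, the other cGMP-specific member tested, was at 10.4 and 12.1 against 15.6 and 15.9 CPM. Its log2 fold change of 0.50 ± 0.12 passed the adjusted p (0.00129) but lay under the fold threshold.

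**Figure D2:**
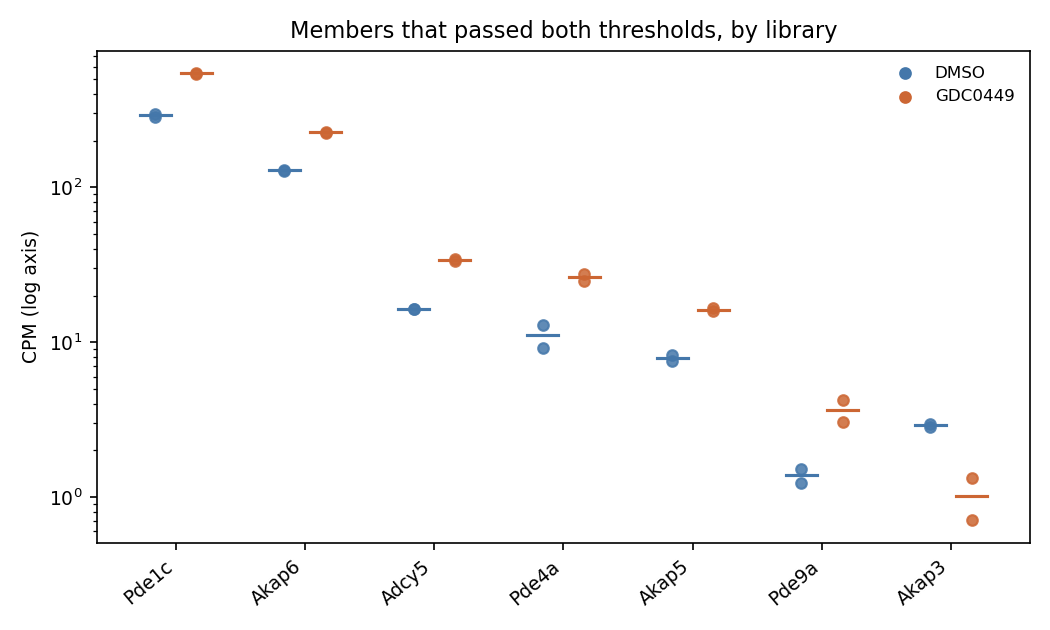
CPM on a log axis for the 7 genes that passed both thresholds; each dot is a library, each short line a group mean (n = 2). Pde1c rises from 291 to 543 CPM on average, and Akap3, at 2.90 and 1.02 CPM, is the only gene with the control dots on top.

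The other phosphodiesterases with a high level per length did not pass. Pde6d, which encodes a subunit that also carries prenylated proteins into cilia, was at 22.0 and 21.6 FPKM in DMSO and 16.9 and 21.1 FPKM in GDC0449. It lay above Pde1c in both DMSO libraries and below it in both GDC0449 libraries on this scale, and likewise in counts per exonic length. The Pde6d log2 fold change in counts was -0.20 ± 0.09 (adjusted p = 0.0745). Pde7a, which is cAMP-specific, was at 9.22 and 9.42 against 10.2 and 11.1 FPKM (log2 fold change 0.12 ± 0.07, adjusted p = 0.181). Pde3b, which hydrolyses cAMP and is inhibited by cGMP, was at 7.59 and 8.42 against 8.25 and 8.001 FPKM, with overlapping groups (log2 fold change -0.01 ± 0.07).

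Pde8a, Pde8b, Pde10a and Pde3a stayed below 3 CPM in every library, with log2 fold changes of 0.43 ± 0.30, 0.64 ± 0.41, 0.33 ± 0.38 and 0.08 ± 0.28, and none passed. The photoreceptor genes of the PDE6 group were all but unread: Pde6a, Pde6b, Pde6c, Pde6g and Pde6h had 0 to 5 reads per library. Pde7b had at most 4 reads, and Pde11a had 2 and 0 reads in DMSO and 11 and 6 in GDC0449.

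Pde2a is a member whose counts and FPKM tell different stories. This enzyme, which cGMP stimulates to hydrolyse cAMP, had 0 and 1 reads counted in DMSO and 2 and 10 in GDC0449, and so was not tested. Its FPKM was 2.11 and 1.92 in DMSO and 5.51 and 6.85 in GDC0449, with no overlap. In the annotation 64.3% of its exonic bases are shared with Gm45837, a protein-coding model on the same strand, which had 0 counted reads in each library and FPKM of 6.81 and 6.20 against 18.6 and 17.8. In an analysis added after the data were seen, limma on log2(FPKM + 1) over genes with an FPKM of at least 1 in 2 libraries, Pde2a was higher by 1.25 (adjusted p = 0.00414) and Gm45837 by 1.36 (adjusted p = 0.00109). In that analysis 3.97% of 13084 genes were called higher. Which gene the fragments belong to was not tested.

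**Figure D3:**
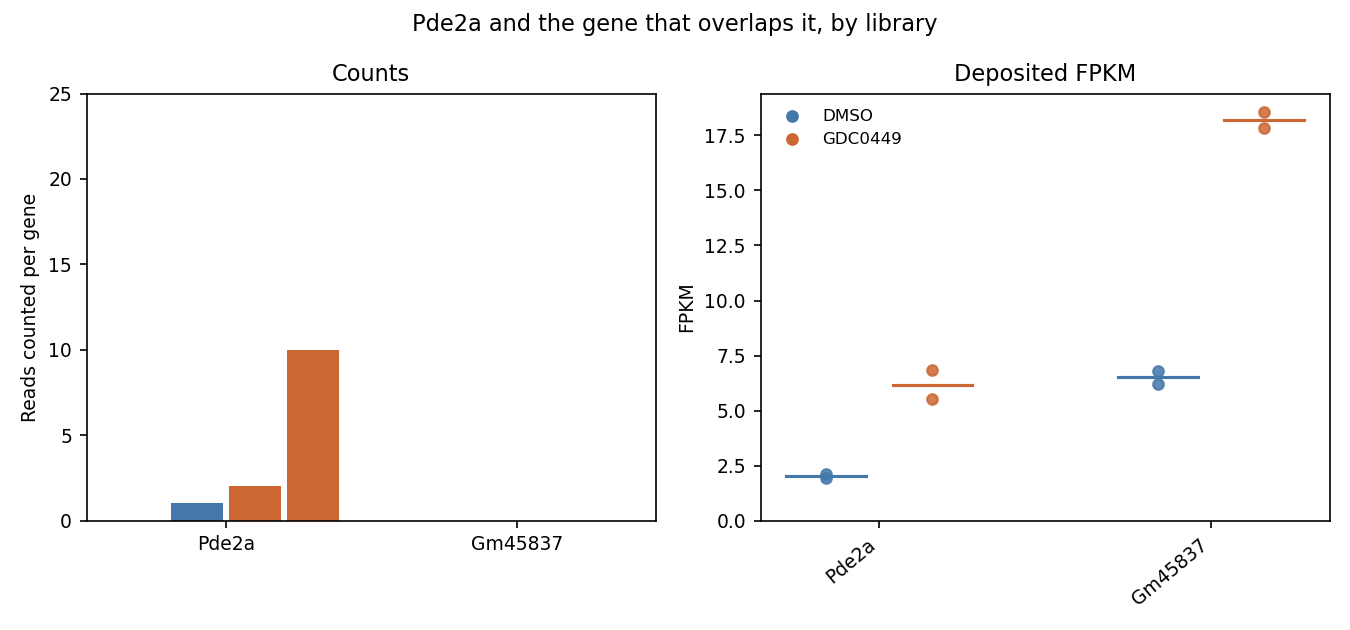
Reads counted (left, 1 bar per library) and FPKM (right, 1 dot per library, lines are group means, n = 2) for Pde2a and the overlapping model Gm45837. At most 10 reads were counted per library, while Pde2a FPKM lies near 2.01 in DMSO and 6.18 in GDC0449.

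The summed FPKM of all 24 phosphodiesterases was 58.7 and 62.2 in DMSO and 91.1 and 81.7 in GDC0449. From counts per exonic length the sums were 55.0 and 55.6 against 68.4 and 71.3. The groups did not overlap on either scale. Within the phosphodiesterase sum, mean FPKM in DMSO and GDC0449 was 13.1 and 31.8 for Pde1c and 21.8 and 19.0 for Pde6d. For Pde2a, whose counts and FPKM conflict, it was 2.01 and 6.18. The higher sum thus does not show a rise of the family as a whole. Summed cyclase FPKM was 17.2 and 14.4 against 19.1 and 17.5. These sums describe transcripts and not enzyme activity.

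None of the 6 PKA subunit genes was called, whether by edgeR, limma-voom or DESeq2. Of these genes 4 stood at an unadjusted edgeR p under 0.05, as did 43.9% of all genes tested. Prkar1a, which encodes the regulatory subunit RIα, was the most abundant member of any family on the FPKM scale, at 70.9 and 69.9 in DMSO and 68.3 and 71.3 in GDC0449. Those values overlap, and its log2 fold change was -0.02 ± 0.06. Prkar2a, which encodes RIIα, was at 21.7 and 24.4 against 19.8 and 21.7 FPKM (log2 fold change -0.14 ± 0.06, adjusted p = 0.0778). Prkar1b was scarce, with 4.73 and 5.15 against 4.93 and 4.69 CPM (log2 fold change -0.03 ± 0.19).

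Prkar2b, which encodes RIIβ, a regulatory subunit prominent in neurons and fat, came closest to the fold threshold. It was at 44.9 and 53.5 CPM in DMSO and at 67.4 and 73.6 CPM in GDC0449, with no overlap. The log2 fold change was 0.52 ± 0.08 (SE, edgeR adjusted p = 5.87e-07), or 1.44-fold. It passed both thresholds without DMSO replicate 2, at 0.65 (adjusted p = 0.0433), and had an adjusted p of 0.0780 at 0.40 without DMSO replicate 1. Its share of regulatory FPKM was 8.52% and 9.89% in DMSO and 13.0% and 13.6% in GDC0449.

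The catalytic subunits differed in opposite directions by small amounts. Prkaca, which encodes Cα, was at 98.0 and 94.5 CPM in DMSO and 113 and 107 CPM in GDC0449 (log2 fold change 0.19 ± 0.07, adjusted p = 0.0225). Prkacb, which encodes Cβ, was at 140.4 and 145 CPM against 117.2 and 117.4 CPM (log2 fold change -0.28 ± 0.06, adjusted p = 0.000484). The groups did not overlap for either gene, and both missed the fold threshold. Prkaca made up 56.7% and 55.4% of catalytic FPKM in DMSO and 64.9% and 63.5% in GDC0449. The ratio of regulatory to catalytic FPKM was 2.12 and 2.14 in DMSO and 2.03 and 2.20 in GDC0449, so the groups overlapped.

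**Figure D4:**
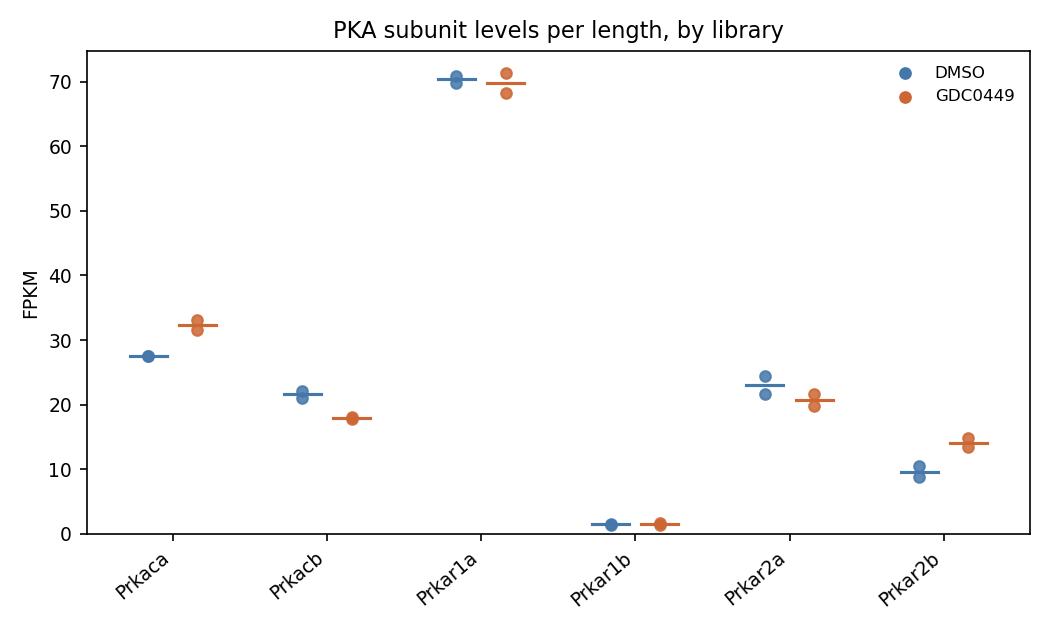
FPKM of the 6 PKA subunit genes, 1 dot per library, lines are group means (n = 2). Prkar1a lies near 70 FPKM in both groups, Prkaca and Prkar2b lie higher and Prkacb lower in GDC0449, and each of these differences is under 1.5-fold in counts.

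Among the anchors, 2 of 13 tested rose and 1 fell, against 8.62% and 3.8% of all genes tested. Akap6, which encodes mAKAP, an anchor of the nuclear envelope in muscle and neurons that also binds PDE4D, was at 128 and 129 CPM in DMSO and 225 and 227 CPM in GDC0449. Replicates nearly coincided within each group. The log2 fold change was 0.81 ± 0.06 (SE, edgeR adjusted p = 2.36e-15), a 1.75-fold rise, at chromosome 12, 52699383 to 53155599 (ENSMUSG00000061603). In FPKM it was at 5.69 and 5.89 against 10.1 and 10.2.

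Akap5, which encodes AKAP79/150, a postsynaptic anchor for PKA, calcineurin and protein kinase C, started lower. It was at 7.52 and 8.31 CPM in DMSO and 16.5 and 15.8 CPM in GDC0449, with no overlap. Its log2 fold change was 1.03 ± 0.13 (SE, edgeR adjusted p = 8.12e-09), a 2.05-fold rise, at chromosome 12, 76324891 to 76334153 (ENSMUSG00000021057). On log2(FPKM + 1) it missed the fold threshold, at 0.58 (adjusted p = 0.0187).

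Akap3, known as an anchor of the sperm tail, was the only member that fell. It had 58 and 46 reads in DMSO and 28 and 15 in GDC0449, or 2.95 and 2.85 against 1.33 and 0.710 CPM. The log2 fold change was -1.51 ± 0.31 (SE, edgeR adjusted p = 0.000123), at chromosome 6, 126853098 to 126874308 (ENSMUSG00000030344). Without DMSO replicate 1 or 2 the change was as large, at -1.48 and -1.53, but missed the adjusted p (0.112 and 0.0997). It was -0.39 on log2(FPKM + 1), under the fold threshold, and -1.23 on log2(FPKM + 0.1), where it passed (adjusted p = 0.0356).

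The 4 anchors of highest level per length were Akap8 and Akap8l, which encode nuclear proteins, Akap11, and Akap1, which encodes an anchor of the mitochondrial outer membrane. Akap8 was at 44.3 and 47.5 FPKM in DMSO and 44.3 and 45.4 FPKM in GDC0449. Akap8l was at 39.9 and 36.7 against 35.0 and 32.7 FPKM. Akap11 was at 13.8 and 14.3 against 14.0 and 13.1 FPKM, and Akap1 at 14.9 and 13.7 against 13.8 and 12.4 FPKM. On this scale the groups overlapped except for Akap8l. In counts none of the 4 passed, with log2 fold changes of -0.07 ± 0.06, -0.15 ± 0.06, -0.07 ± 0.06 and -0.11 ± 0.07.

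Akap9, which encodes a centrosomal and Golgi anchor, and Akap13 had log2 fold changes of 0.13 ± 0.06 and 0.11 ± 0.07, and neither passed. Akap10 and Akap7 had -0.19 ± 0.09 and 0.21 ± 0.12. Akap12, which encodes gravin, was at 60.6 and 63.6 CPM in DMSO and 72.1 and 74.6 CPM in GDC0449 (log2 fold change 0.24 ± 0.07, adjusted p = 0.00775), under the fold threshold. Its FPKM groups overlapped, at 6.46 and 5.66 against 5.82 and 6.99. Akap17b was at 8.39 and 10.4 against 14.2 and 12.4 CPM (log2 fold change 0.51 ± 0.14, adjusted p = 0.00250). It passed both thresholds without GDC0449 replicate 2, at 0.60, and stood at 0.07 on log2(FPKM + 1). Akap4 had 0 reads, and Akap14 had 1 to 4. Akap2 also had 0 reads, as did Pakap, with which it shares 84.4% of its exonic bases.

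Promoter sequences were examined because the genes that rose came from different families, and RefSeq gave a window for each called gene but Pde9a. The RefSeq windows (GRCm38.p6, 250 bases before to 50 after a gene start) covered 45 of the 56 genes with 87 windows. Searched on both strands were the cAMP response element TGACGTCA, its half-site TGACG, which the full element contains, and the Gli consensus GACCACCCA. The half-site lay in 18 of the 87 windows (20.7%) and in 20.8% of all 32851 windows. The full element lay in 2 overlapping windows of Prkar1a (2.3% of the 87), against 1.79% of all windows. The Gli consensus lay in 0 of the 87 and in 0.253% of all. Among the called genes only Pde4a had a half-site, in 1 of its 3 windows.

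Shown are the windows of Adcy5 and Akap6, which rose and differ most in base composition among the called genes, the Pde4a window with a half-site and a Prkar1a window with the full element. They are printed 5′ to 3′ with half-sites and the full element in capitals. Their places are chr16:35154614-35154913 for Adcy5, chr12:52699133-52699432 for Akap6, chr9:21183851-21184150 for Pde4a and chr11:109650699-109650998 for Prkar1a, all on the plus strand. Adcy5 has 79.0% G and C with 44 CpG, and Akap6 has 43.7% with 2 CpG, against medians of 52.7% and 7 over all windows. A match is a description of letters, and a window without one says nothing of the factor.
Adcy5: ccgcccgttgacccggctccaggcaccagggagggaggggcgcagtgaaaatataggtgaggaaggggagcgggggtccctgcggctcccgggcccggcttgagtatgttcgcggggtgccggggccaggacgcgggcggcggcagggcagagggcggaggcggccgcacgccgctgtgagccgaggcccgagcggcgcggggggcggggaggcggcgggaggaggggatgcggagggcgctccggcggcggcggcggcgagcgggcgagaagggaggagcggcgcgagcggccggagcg
Akap6: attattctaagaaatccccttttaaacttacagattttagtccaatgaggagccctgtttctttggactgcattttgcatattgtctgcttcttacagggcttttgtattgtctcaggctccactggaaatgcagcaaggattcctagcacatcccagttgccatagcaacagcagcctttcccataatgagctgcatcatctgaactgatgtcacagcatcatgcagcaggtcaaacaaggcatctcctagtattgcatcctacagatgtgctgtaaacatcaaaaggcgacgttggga
Pde4a: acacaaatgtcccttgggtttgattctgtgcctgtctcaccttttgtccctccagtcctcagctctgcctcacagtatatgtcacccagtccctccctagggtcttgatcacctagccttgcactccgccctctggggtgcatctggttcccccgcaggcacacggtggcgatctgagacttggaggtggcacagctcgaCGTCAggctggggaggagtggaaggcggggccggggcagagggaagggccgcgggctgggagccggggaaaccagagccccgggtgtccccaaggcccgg
Prkar1a: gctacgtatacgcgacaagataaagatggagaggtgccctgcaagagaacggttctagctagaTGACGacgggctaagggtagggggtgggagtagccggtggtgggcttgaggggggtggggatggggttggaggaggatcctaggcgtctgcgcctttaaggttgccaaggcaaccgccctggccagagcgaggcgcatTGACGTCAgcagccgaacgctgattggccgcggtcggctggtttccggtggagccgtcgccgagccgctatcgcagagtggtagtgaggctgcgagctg

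Around these genes, other parts of the pathway were read from the same fit, by list. Of 88 tested genes on the lists, 6 rose (6.82%) and 3 fell (3.41%), both shares below those of all genes (8.62% and 3.8%). One list held 14 receptors that raise or lower cAMP and are linked to Hedgehog signalling or granule progenitors, not all such receptors. It gave 3 risers and 0 fallers among 7 tested, and the other 7 had too few reads. The list was chosen with earlier results of these data known, so its share is a description only. Adcyap1r1, which encodes PAC1, the receptor for the peptide PACAP, was at 65.9 and 65.1 CPM in DMSO and at 224.1 and 223.6 CPM in GDC0449. The groups were far apart, and the log2 fold change was 1.77 ± 0.07 (SE, edgeR adjusted p = 3.36e-27). Vipr1, which encodes VPAC1, a receptor for PACAP and VIP, was at 32.9 and 29.8 against 119.6 and 117 CPM, a 3.76-fold rise. Both receptors couple to Gs.

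Cnr1, the Gi-coupled cannabinoid receptor gene, rose from 50.2 and 53.6 to 79.99 and 79.4 CPM. Its log2 fold change of 0.62 ± 0.07 lay near the threshold and was 0.57 without DMSO replicate 1. Gpr161, which encodes a ciliary receptor that raises cAMP and represses Hedgehog signalling, was at 20.9 and 21.7 CPM in DMSO and 25.02 and 23.9 CPM in GDC0449 (log2 fold change 0.20 ± 0.10, adjusted p = 0.115). Gpr161 falls outside the naming rule and was chosen after its value was seen. Of the 7 Gs and Gi protein genes 0 were called, whether by edgeR, limma-voom or DESeq2, and 2 stood at an unadjusted edgeR p under 0.05, against the 43.9% of all genes. Gnai2 and Gnao1, those of highest CPM, had log2 fold changes of -0.14 ± 0.06 and -0.03 ± 0.06. Gnas, which encodes the Gs subunit that drives the cyclases, was likewise picked after its values were seen. It was at 31.5 and 27.4 CPM in DMSO against 24.02 and 32.2 CPM in GDC0449. Its FPKM spread from 76.0 and 164 in DMSO to 256 and 153 in GDC0449, with the highest mean of the 7 genes. From counts per exonic length it was at only 2.81 and 2.45 RPKM against 2.15 and 2.88 RPKM. Counts and FPKM of Gnas thus conflict, as they do for Pde2a, and its test on counts is uncertain. The groups overlapped on each of these scales.

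**Figure D5:**
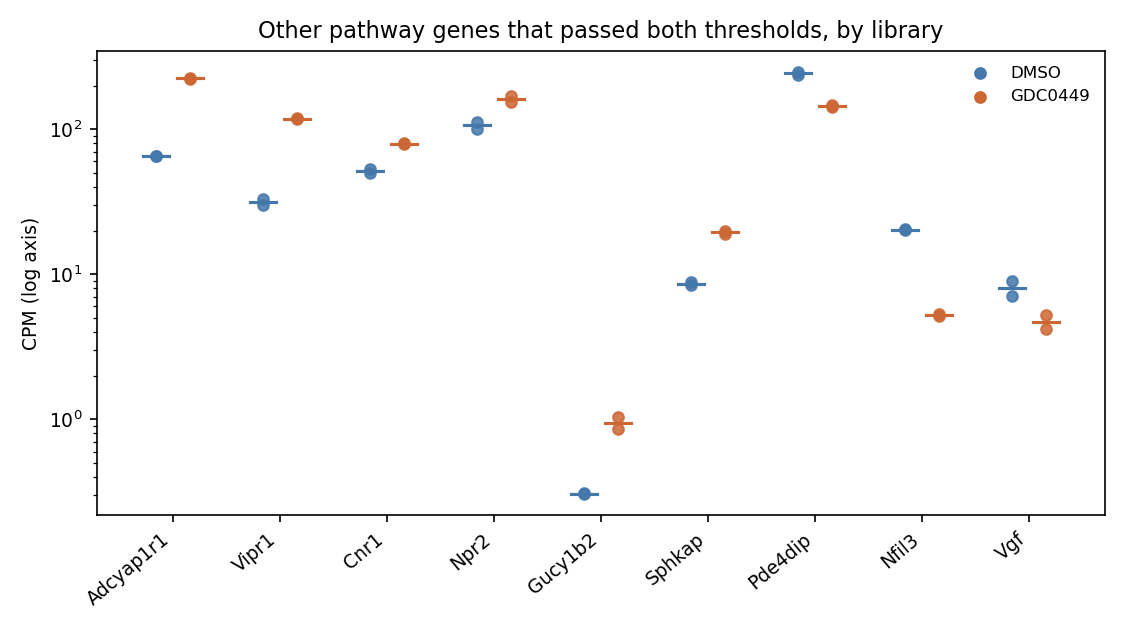
CPM on a log axis for the 9 genes on the other pathway lists that passed both thresholds; dots are libraries, lines group means (n = 2). Adcyap1r1 and Vipr1 are more than 3-fold higher in GDC0449, and Pde4dip, Nfil3 and Vgf are lower.

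Anchoring proteins without an Akap symbol gave 1 riser and 1 faller among 14 tested, against 8.62% and 3.8% of all genes tested. Sphkap, which encodes a neuronal anchor that binds RI subunits, rose from 8.39 and 8.81 to 19.1 and 20.02 CPM (log2 fold change 1.19 ± 0.12). Pde4dip, which encodes myomegalin, a centrosomal and Golgi protein that binds PDE4D, fell from 236 and 248.5 to 146.8 and 142.6 CPM (log2 fold change -0.74 ± 0.06, adjusted p = 4.32e-14). On log2(FPKM + 1) it was at -0.58 with an adjusted p of 0.0787.

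On the cGMP side, 6 of 12 listed guanylyl cyclase and natriuretic receptor genes had enough reads to be tested. Of these 6, 2 rose and 0 fell, against 8.62% and 3.8% of all genes tested. By adjusted p alone 2 were higher and 1 lower, against 18% in each direction. Npr2, the receptor cyclase for C-type natriuretic peptide, rose from 112.5 and 101 to 169 and 155 CPM. Its log2 fold change of 0.60 ± 0.07 fell under the threshold without DMSO replicate 2 (0.52) and without GDC0449 replicate 1 (0.54). Gucy1b2 had 6 and 5 reads against 22 and 18, and its call was lost without DMSO replicate 1, without DMSO replicate 2 and without GDC0449 replicate 1 (adjusted p = 0.109, 0.0988 and 0.0934). DESeq2 gave it no adjusted p.

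Downstream, genes known to respond to CREB, the transcription factor that PKA activates, gave 0 called higher and 2 lower among 13 tested. Over all genes tested, 8.62% were called higher and 3.8% lower. By adjusted p alone 3 of the 13 were higher and 4 lower, against 18% of all genes tested in each direction. Nfil3, which encodes a leucine zipper repressor, fell from 20.2 and 20.4 to 5.165 and 5.301 CPM (log2 fold change -1.96 ± 0.13). Vgf, which encodes a secreted neuronal peptide precursor, fell from 8.95 and 7.13 to 4.22 and 5.21 CPM, a call lost without DMSO replicate 1 and without DMSO replicate 2 (adjusted p = 0.144 and 0.0687). The edgeR fit called 0 of the genes on 5 other lists, and at an unadjusted p under 0.05 stood 2 of 12 in the CREB family and its coactivators, 2 of 8 other cAMP effectors, 1 of 3 PKA inhibitors and related kinases, 8 of 12 Gli kinase and processing genes and 5 of 8 phosphatases. The share over all genes tested at that p was 43.9%. DESeq2 and limma-voom also called 0 of each. The log2 fold changes of the 8 phosphatase genes ran from -0.36 to -0.07. By adjusted p alone 0 of these 8 were higher and 4 lower, against 18% of all genes tested in each direction. Of the 12 Gli kinase and processing genes, 3 were higher and 5 lower by adjusted p alone. Creb1 had a log2 fold change of 0.09 ± 0.07 and the coactivator gene Ep300 -0.10 ± 0.06. Rapgef2 and Rapgef3, which encode exchange factors for Rap, stood at -0.14 ± 0.09 and 0.52 ± 0.11, of which Rapgef3, the cAMP-activated EPAC1, passed the adjusted p (0.000114) only. Pkia, an inhibitor of PKA, and Prkx, a related kinase, stood at 0.17 ± 0.08 and 0.07 ± 0.08. The Gli kinase genes Csnk1a1 and Gsk3b stood at -0.18 ± 0.06 and 0.18 ± 0.06, and the phosphatase genes Ppp2ca and Ppp1cb at -0.10 ± 0.06 and -0.36 ± 0.06. On log2(FPKM + 1) Creb1 and Ppp1cb turned to -0.025 and 0.010.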

How the data were processed

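The submitters' processing notes name Trim Galore, HISAT2 with the mm10 build, and HTSeq 0.11.1 as the tools behind the counts, and DESeq2 1.26.0, which served the authors' own test. Deposited values are raw counts per gene and FPKM, which the authors scaled by gene length and sequencing depth. The sources used here give neither the tool behind FPKM nor the annotation release or strand setting. Of the 55573 genes, 546 have 0 counts in each library with an FPKM of at least 1 in each, so counts and FPKM do not share an assignment of reads. A further 6 lines of the table do not name a gene and were dropped: reads in no gene made up 12.3% to 14.4%, ambiguous reads 4.73% to 4.91% and reads with several alignments 10.4% to 10.7%.

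Symbols, coordinates and exonic lengths came from GENCODE M21 (GRCm38, the assembly called mm10), which held 55480 of the identifiers. The quasi-likelihood test of edgeR 4.0.16 (R 4.3.3) was applied to the counts with TMM scaling, the default expression filter, group as the only term, all 4 libraries, two-sided, Benjamini-Hochberg adjustment over all 15472 genes tested. The thresholds of 0.05 and 1.5-fold are those of the design text. The SE follows from dividing a log2 fold change by the root of its F value. CPM uses TMM factors; RPKM is CPM per kilobase of exon. The biological coefficient of variation was 4.82%. Replicates differed by more than sampling noise (chi-square per gene of 4.11 in DMSO and 3.41 in GDC0449) and were kept apart. On simulated data of 15235 genes, the test called 99 of 100 genes changed by 1 on the log2 scale and 99 of 100 changed by 2. It also called 1 unchanged gene. The simulation gave all genes the same dispersion and placed changes only in genes with a mean above 1 CPM. It therefore does not show how often changes in scarcer or more variable genes would be called. Alternatives were other scalings and filters, DESeq2 1.42.0, limma 3.58.1 on counts (voom) and FPKM, a replicate block, other thresholds and leaving out each library.

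Each tested gene of the pattern is named, and called genes, PKA subunits and the 4 of highest FPKM per family get values per library. Of each other list, up to 4 called genes by p are named, or 2 of highest CPM where none was called. Of FPKM and RPKM, 8 of the 40 tested genes had values more than 2-fold apart. Genes and lists were chosen with earlier results of these data known. The 9 called genes of the other lists were all named.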

Additional observations from a re-analysis of the deposited data

How the results depend on the processing

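The calls of Adcy5, Akap6, Pde1c and Pde4a held in every fit at the 1.5-fold threshold, and that of Akap5 in every fit except log2(FPKM + 1), with or without the FPKM filter. Scaling by relative log expression or by the upper quartile, omitting the filter, DESeq2 and limma-voom called the same 6 genes higher and 1 lower. The fit with a replicate block gave 7 higher and 1 lower, adding Pde1a at 1.14 (adjusted p = 0.0464); replicate numbers were not shown to pair the samples, since the deviations of same-numbered libraries correlated at 0.035. The count lower was 0 with the filter at 5 CPM, with log2(FPKM + 1) and with its FPKM filter, because Akap3 was not tested or not called there. It ranged from 0 to 1 over the fits without 1 library. In those fits a group of 1 library is assumed to vary like the other group. By adjusted p alone 12 were higher and 3 lower. Over all genes tested, 1333 were higher and 588 lower, with 484 to 1167 and 323 to 581 without 1 library. Other counts were 798 and 367 with the 5 CPM filter, 880 higher with DESeq2, 503 and 337 on log2(FPKM + 1), 804 higher on log2(FPKM + 0.1), 520 and 350 with the FPKM filter, 2778 and 2779 by adjusted p alone, and 646 and 309 over 2-fold. Lower calls on the other lists numbered 2 to 5 without 1 library, 1 on log2(FPKM + 1) with or without the FPKM filter, 1 on log2(FPKM + 0.1) and 1 over 2-fold, and by adjusted p alone 18 were higher and 17 lower.

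Some genes that were not called changed sign. Most lay near 0, but Akap7 (0.21), Pde4d (-0.18) and Ppp1cb (-0.36, adjusted p = 7.22e-06 with edgeR) did not. With upper-quartile scaling Adcy4, Adcy7, Pde3b, Prkar1a and Gnao1 were at 0.023, 0.014, 0.019, 0.016 and 0.00058. With the 5 CPM filter Adcy7, Pde3b and Prkar1a were at 0.0085, 0.013 and 0.0099. On log2(FPKM + 1) and log2(FPKM + 0.1) Adcy4 was at 0.044 and 0.18, Akap7 at -0.0018 and -4.0e-05, Pde3a at -0.066 and -0.27, Pde3b at 0.021 and 0.023, Prkar1b at 0.036 and 0.055, Gnao1 at 0.033 and 0.035, Creb1 at -0.025 and -0.026, and Ppp1cb at 0.010 and 0.013. With the FPKM filter Akap7, Pde3b, Prkar1b, Gnao1, Creb1 and Ppp1cb had the values of log2(FPKM + 1). Without 1 library the ranges were -0.38 to 0.28 for Adcy4, -0.14 to 0.13 for Adcy7, -0.016 to 0.16 for Pde3a, -0.082 to 0.050 for Pde3b, -0.41 to 0.13 for Pde4d, -0.046 to 0.0096 for Prkar1a, -0.10 to 0.021 for Prkar1b and -0.067 to 0.00088 for Gnao1. From counts per exonic length in place of FPKM, Prkar2b made up 11.1% and 15.6% of regulatory subunits in DMSO and GDC0449, Adcy6 49.3% and 49.6% of cyclases, Pde1c 26.2% of phosphodiesterases in DMSO, and the regulatory to catalytic ratio in DMSO was 2.22. On that scale Prkaca made up 70.4% and 76.7% of catalytic subunits in DMSO and GDC0449. Pde4a made up 59.7% and 76.4% of the PDE4 genes, and Adcy5 14.3% and 23.4% of cyclases. The cause of these shifts was not tested. Low counts limit what can be said of the 16 genes not tested, which had at most 11 reads per library. For Pde2a, which is among them, the counts and FPKM conflict as given above.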
